A study of Mus musculus with 3 samples.

Results

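Most of the genes described here encode the standing proteasome, the protease complex that degrades ubiquitin-tagged proteins in every mouse cell. The set took all genes whose symbol begins with Psma to Psmg and a digit and that have at least 1 protein-coding transcript. It left out the 5 inducible genes Psmb8, Psmb9, Psmb10, Psme1 and Psme2. This choice used names and no measured value, and it gave 45 of 55536 annotated genes. Of these, 31 encode subunits of the 20S core and the 19S cap of the proteasome. The others are activators and an inhibitor, assembly chaperones, forms of single tissues, the uncertain Psme2b, and Psmc3ip, which is no proteasome component. All 45 are called proteasome genes below. RNA was measured in 3 libraries of 1 group and there was no unstimulated group, so levels could be compared between genes but not between conditions. The cells were macrophages grown from bone marrow of C57BL/6J mice, and the labels name no engineered allele. They met 100 ng/ml lipid A, the Toll-like receptor 4 ligand of bacterial lipopolysaccharide, over 12 h, rested without it for another 12 h and met 100 ng/ml lipid A again for 90 min. Only RNA bound to chromatin was taken, ribosomal RNA was depleted, and each library started from a different input, 1 µg of RNA in replicate 1, 250 ng in replicate 2 and 500 ng in replicate 3. Per the labels these are biological replicates, each with its own sample record, but the labels give 1 donor entry for all 3 and do not mention separate cultures. The p-values and SDs therefore measure the spread between these libraries, which may be technical.

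The 20S core particle is a barrel of 4 stacked rings. The outer rings are built of alpha subunits, which gate the entry pore, and the inner rings of beta subunits, of which Psmb5, Psmb6 and Psmb7 carry the peptide-cutting sites. The 19S regulatory particle caps the barrel: its Psmc ATPases unfold substrates and its Psmd subunits bind or remove ubiquitin and hold the cap together. Cells exposed to interferon make the partner subunits Psmb8, Psmb9 and Psmb10, which replace Psmb5, Psmb6 and Psmb7 in newly assembled immunoproteasomes, and the PA28 activator Psme1 and Psme2.

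Total expected counts over annotated genes were 12502177, 21683473 and 16844974 in replicates 1, 2 and 3, of which the 45 genes held 15436, 24123 and 19757. Levels are TPM, a length-corrected abundance relative to all features of a library, as mean ± SD over the 3 libraries. Protein-coding genes held 34.1%, 27.4% and 29.4% of TPM in the 3 libraries. The macrophage label was met by 10 of 10 macrophage markers at 1 TPM or more in each library, with a summed level of 1711 to 2124 TPM, against 1 of 21 markers of other lineages. The exception was Kdr, an endothelial receptor gene with 13.4, 3.19 and 4.54 TPM, while 6 of those 21 markers were at 0 in every library; the summed level of the 21 was 5.74 to 16.0 TPM. In a bulk fraction, fewer cells with a transcript and less RNA per cell cannot be told apart.

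RNA of 41 of the 45 proteasome genes was present on chromatin of the restimulated macrophages. Its level differed widely between subunits that are equimolar in the finished particle. Only chromatin RNA was measured, and neither mature mRNA nor protein. These 41 genes reached 1 TPM in each library, where 41.1% of 22015 protein-coding genes did, and 31 reached 10 TPM, where 19.1% of protein-coding genes did. In the other transcript table, made from the reads directly, 44 of the 45 genes reached 1 TPM in each library. The share of all protein-coding genes at 1 TPM there was not computed, so that count has no comparison. It includes Psmb11, which had a count of 0 in the gene table. The median level of all 45 was 21.7 ± 2.32 TPM, and the median over all protein-coding genes was 0.353 ± 0.00577 TPM. Together the 45 made up 0.374%, 0.398% and 0.394% of the protein-coding TPM of the 3 libraries. The genes below 1 TPM in a library were Psma8, Psmb11, Psmg4 and Psmc3ip. The order of the 45 genes was alike in all libraries, with a Spearman rho of 0.971 to 0.983 between pairs of libraries; these values share the gene lengths and the annotation.

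**Figure D1:**
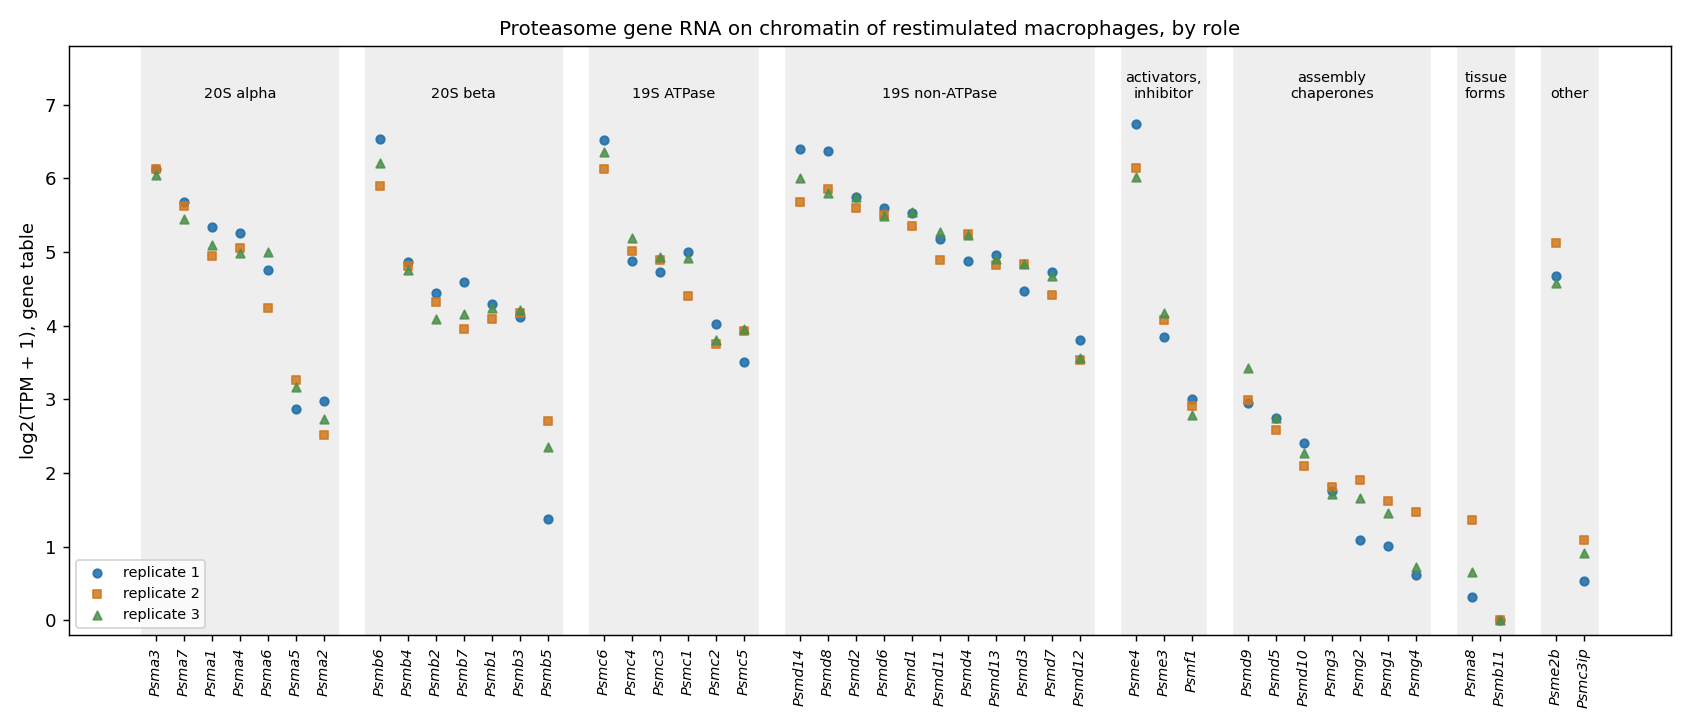
Each of the 45 genes is shown by its level in the 3 libraries (points), as log2(TPM + 1) from the gene table, grouped by role and sorted by mean within a role. The 19S subunits sit above 10 TPM in each library, the assembly chaperones below it, and Psmb5 is the lowest subunit of the 20S and 19S particles.

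All 31 subunits of the 20S and 19S particles reached 1 TPM in each library, and 28 of them reached 10 TPM. Over all transcripts their mean levels differed 21.5-fold between the highest, Psmc6, and the lowest, Psmb5. That order rested on the kind of transcript: on protein-coding transcripts alone, Psmd1 was the highest with 28.9 TPM and Psmb3 the lowest with 2.78 TPM, while Psmc6 had 13.6 TPM and Psmb5 3.73 TPM. The 7 alpha-ring genes had a median of 32.7 ± 4.09 TPM. Over all transcripts Psma3 was the highest at 68.9, 68.7 and 65.4 TPM in replicates 1, 2 and 3. Psma7 had 50.2, 48.6 and 42.8 TPM, and Psma1 had 39.7, 29.7 and 33.2 TPM. On the log2(TPM + 1) scale the libraries lay close together for Psma3, with an SD of 0.04, and further apart for Psma1, with 0.21. With TPM rescaled to protein-coding genes the order was the opposite, 0.16 for Psma3 and 0.05 for Psma1. Part of Psma3 overlaps the opposite-strand noncoding gene 3110056K07Rik, which had 28.3 ± 8.23 TPM, and the labels and headers do not say whether reads were counted by strand. Psma4 had 33.5 ± 3.42 TPM. On protein-coding transcripts alone Psma4 was the highest alpha gene with 21.2 ± 1.84 TPM, and Psma3 had only 6.26 ± 2.34 TPM. Psma6 had 26.2, 17.9 and 31.0 TPM, one of the 5 largest spreads among the 41 genes whose mean was at least 1 TPM.

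The 2 lowest alpha genes were Psma5 with 7.63 ± 1.16 TPM and Psma2 with 6.91, 4.71 and 5.64 TPM. Their low place depended on the table and, for Psma5, on the kind of transcript. On protein-coding transcripts alone Psma5, with 6.33, 8.58 and 7.97 TPM, was above Psma3 in replicates 2 and 3. Psma3 then had 8.9, 5.42 and 4.45 TPM. In the authors' other transcript table, Psma2 had 34.0, 25.2 and 27.7 TPM and Psma5 had 34.5, 23.3 and 22.4 TPM. Most of the Psma2 value there, 23.9 TPM on average, lay on the long transcript ENSMUST00000221168.1, which had 0 TPM in the main table in all libraries. Psma2 spans 60997 bases and overlaps the gene AW209491 on the same strand, and the part of its reads in this value was not tested. For Psma5, 14.3 TPM lay on the nonsense-mediated decay transcript ENSMUST00000129708.2, which was also at 0 TPM in the main table. Of the 41 genes, 4 were more than 2-fold higher in the other table, Psma2, Psma5, Psmd14 and Psme3, and so were 1790 of 9688 protein-coding genes, 18.5%. Over the 41 genes the median ratio of the other table to the gene table was 1.34, and over the 9688 it was 1.29.

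**Figure D2:**
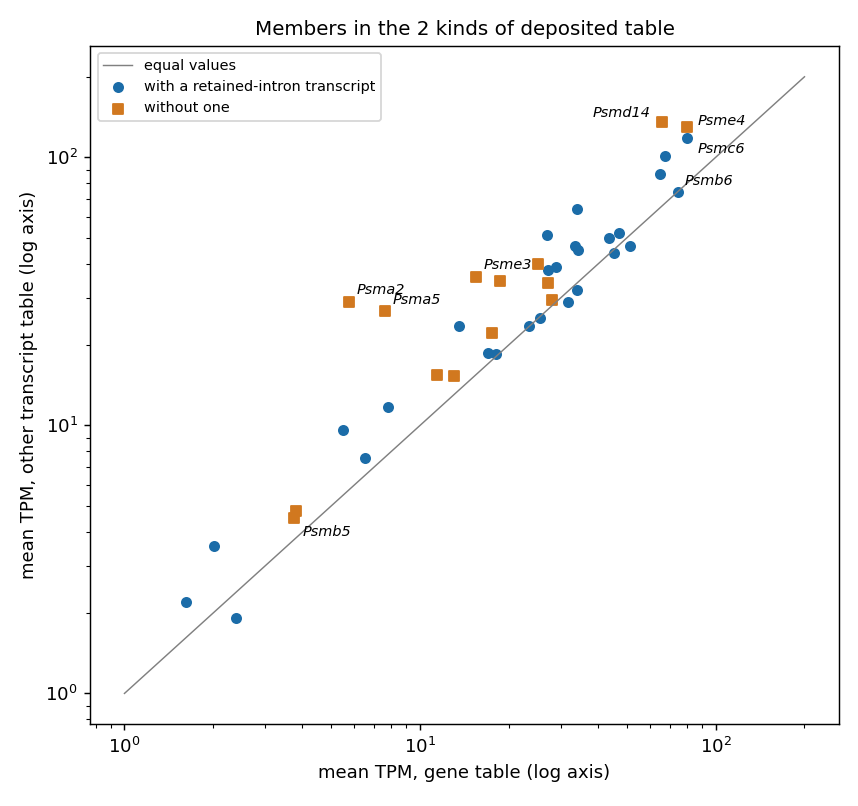
Mean TPM of the 41 genes averaging 1 TPM or more in the gene table (x, log axis) and in the other transcript table (y, log axis), coloured by whether a transcript annotated as retained intron exists. Psma2 and Psma5 lie farthest above the line of equal values, with 29.0 and 26.7 TPM in the other table.

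The 7 beta-ring genes had a median of 18.5 ± 2.05 TPM and held the highest and the lowest core subunit by mean in the gene table, Psmb6 and Psmb5. Psma3 was above Psmb6 in replicate 2, and in the other transcript table Psma3 had 101 TPM and Psmb6 74.2 TPM. Psmb6, the caspase-like subunit, had 92.0, 58.8 and 72.8 TPM in replicates 1, 2 and 3. Psmb4, a structural subunit that helps order ring assembly, had 28.1, 27.2 and 25.99 TPM, and Psmb2 had 20.8, 19.01 and 16.1 TPM. Psmb7, the trypsin-like subunit, had 23.1, 14.5 and 16.9 TPM. Psmb1 had 17.6 ± 1.32 TPM and Psmb3 had 17.0 ± 0.642 TPM. The values of Psmb1, Psmb2, Psmb3 and Psmb7 overlapped between libraries, so their order is not resolved. Psmb5, the chymotrypsin-like subunit and the main target of bortezomib, had only 1.59, 5.51 and 4.10 TPM, from 12, 60 and 40 expected counts. That was the largest spread among all the genes, with an SD of 0.69 on the log2(TPM + 1) scale, and over all transcripts its highest library was below the lowest library of Psmb7. On protein-coding transcripts alone Psmb7 had 3.01, 2.77 and 2.71 TPM, below Psmb5 in replicates 2 and 3. The processed pseudogenes Psmb5-ps, Psmb6-ps, Psmb6-ps2 and Psmb7-ps2 had at most 0.2 TPM in any library.

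The promoters of Psmb5 and Psmb6 both hold the core of the antioxidant response element, TGACNNNGC. This is the kind of site bound by Nfe2l1 and Nfe2l2, which are known to drive proteasome genes. Of the other beta-ring genes, Psmb3 and Psmb4 had a promoter window without the core. Psmb1, Psmb2 and Psmb7 had no window and were not searched. Promoters were taken from RefSeq on GRCm38.p6, from 250 bases before to 50 bases after the annotated start. They are given 5′ to 3′ on the strand of the gene, with the response-element core and, for Psmb6, the GC box CCGCCC in capitals. The Psmb5 window is chr14:54617946-54618245 on the minus strand and the Psmb6 window is chr11:70525107-70525406 on the plus strand. The core starts 47 bases before the start in Psmb5 and 9 bases before it in Psmb6.
Psmb5: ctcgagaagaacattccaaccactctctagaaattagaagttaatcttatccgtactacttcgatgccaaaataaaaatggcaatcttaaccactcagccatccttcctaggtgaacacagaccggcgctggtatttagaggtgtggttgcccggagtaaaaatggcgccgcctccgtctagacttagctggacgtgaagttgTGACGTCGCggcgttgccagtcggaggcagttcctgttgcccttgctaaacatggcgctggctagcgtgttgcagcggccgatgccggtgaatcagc
Psmb6: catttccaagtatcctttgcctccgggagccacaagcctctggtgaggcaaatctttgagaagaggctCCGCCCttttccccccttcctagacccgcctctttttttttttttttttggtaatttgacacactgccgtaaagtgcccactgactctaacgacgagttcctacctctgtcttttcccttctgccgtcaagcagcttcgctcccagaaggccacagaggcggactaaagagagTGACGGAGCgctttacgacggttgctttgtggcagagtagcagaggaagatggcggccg

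The core was not common among the proteasome genes. Of 39 RefSeq windows of 37 of the 45 genes, 6 held it on either strand, 15.4%, and so did 12.4% of 32851 windows of all genes; 8 genes had no window in the table. The other 4 genes with a core are shown with up to 8 bases on each side, the core in capitals and read on the strand of the gene. Psmd9 (chr5:123228151-123228175) has it on the same strand as the gene, and Psmc6 (chr14:45329589-45329613), Psme4 (chr11:30771760-30771784) and Psmd12 (chr11:107479278-107479297) on the opposite strand; all 4 genes lie on the plus strand.
Psmd9: ctagccggTGACCCCGCccacttcc
Psmc6: agccagtaGCTAAGTCAggcattgc
Psme4: ctgcggctGCAGCGTCAccagaaga
Psmd12: tctGCTGTGTCAcatttgcc

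In the gene table the 6 genes ran from the lowest core subunit, Psmb5 with 3.73 ± 1.99 TPM, to the highest 19S subunit, Psmc6 with 80.1 ± 10.9 TPM. Holding these letters thus did not go with a single level. Searched on both strands, the GC box GGGCGG was in 51.3% of the proteasome windows and in 35.7% of all windows, and CCAAT was in 35.9% and 37.4%. TATAAA was in 7.69% of the proteasome windows and 13.6% of all windows. The letters of interferon-linked elements were about as common as elsewhere, with TTCNNNGAA in 5.13% against 8.30% of all windows and TTTCNNTTT in 12.8% against 10.6%. A match is a run of letters and not a measured binding site.

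The 6 ATPase genes of the 19S base had a median of 26.9 ± 2.48 TPM and all had at least 10 TPM. Psmc6 had 90.6, 68.9 and 80.9 TPM in replicates 1, 2 and 3. Its mean in the gene table was the highest of all 45 genes, 80.1 TPM, but the mean of Psme4 was 79.8 TPM, Psme4 was higher in replicates 1 and 2, and Psmb6 was higher in replicate 1. In the other transcript table Psmd14, with 135 TPM, and Psme4, with 130 TPM, lay above Psmc6, with 118 TPM. Psmc4 had 28.3, 31.4 and 35.5 TPM, and Psmc3 had 25.5, 28.7 and 29.5 TPM. Psmc3 overlaps the opposite-strand zinc transporter gene Slc39a13, which had 73.0 ± 3.58 TPM, and the part of those reads in its value was not tested. Psmc1 had 26.9 ± 5.83 TPM, Psmc2 had 13.6 ± 1.51 TPM and Psmc5, the lowest, had 10.4, 14.3 and 14.5 TPM. Over all transcripts Psmc3, Psmc4 and Psmc1 overlapped between libraries, as did Psmc2 and Psmc5, while Psmc6 stood above the other ATPase genes in every library. On protein-coding transcripts alone Psmc6 was not the highest. It had 14.5, 12.4 and 13.9 TPM there, below Psmc1 with 15.0, 17.2 and 17.8 TPM in every library.

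The 11 non-ATPase genes of the cap had a median of 36.6 ± 1.19 TPM. Their order against the alpha ring was not fixed: in replicate 1 the median was 35.3 TPM for the non-ATPase genes and 37.3 TPM for the alpha ring, and the other transcript table gave 43.5 TPM for the non-ATPase genes and 45.4 TPM for the alpha ring. Psmd14, the metalloprotease that cuts ubiquitin chains off substrates, had 83.7, 50.5 and 63.1 TPM in replicates 1, 2 and 3. Psmd8 had 81.9, 57.2 and 54.9 TPM, and Psmd2, the largest scaffold together with Psmd1, had 52.9, 47.6 and 53.0 TPM. Replicate 1 was the highest library for Psmd14 and Psmd8. Psmd4, a ubiquitin receptor, had 33.9 ± 4.77 TPM, and Psmd7, the partner of Psmd14, had 23.4 ± 2.72 TPM. Psmd1 had 43.6 ± 3.21 TPM, and its span also holds the snoRNA gene Gm22786 and, on the opposite strand, the serotonin receptor gene Htr2b with 16.2 ± 4.98 TPM. Psmd6 had 45.2 ± 1.81, Psmd11 33.9 ± 4.63, Psmd13 28.9 ± 1.5 and Psmd3 25.5 ± 3.65 TPM. Over all transcripts the lowest was Psmd12 with 12.9, 10.6 and 10.8 TPM, and it did not overlap any other non-ATPase gene. On protein-coding transcripts alone Psmd12 was not the lowest. It had 11.5 ± 1.29 TPM there, above Psmd6 with 9.71 ± 0.461 TPM and Psmd13 with 8.15 ± 0.754 TPM in every library.

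Among the activators, Psme4, the PA200 activator known for roles in chromatin and spermatogenesis, had 106, 69.8 and 64.2 TPM in replicates 1, 2 and 3, about the level of Psmc6. Replicate 1 was the highest library in TPM, with an SD of 0.38 on the log2 scale. That excess was not seen in log2 CPM of the whole gene, which were 7.61, 7.63 and 7.38 with TMM scaling and 7.63, 7.60 and 7.38 with DESeq2 size factors, each with an SD of 0.14. Psme3, which forms the nuclear PA28 gamma activator, had 13.4, 15.9 and 17.1 TPM. The other transcript table put it 2.32-fold higher, at 34.6, 34.3 and 38.8 TPM. Psmf1, which encodes the inhibitor PI31, had 7.04, 6.52 and 5.92 TPM.

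The assembly chaperones were the lowest class with a role in every cell. Their median was 2.47 ± 0.246 TPM, and none of the 7 reached 10 TPM in each library. Psmd9, a chaperone of the 19S base, had 6.73, 6.92 and 9.72 TPM, Psmd5 had 5.71, 5.0 and 5.72 TPM, and Psmd10, also known as gankyrin, had 4.30, 3.27 and 3.81 TPM. Over all transcripts in the gene table, the values of Psmd9 and Psmd5 did not overlap, and Psmd10 lay below both in every library. On protein-coding transcripts alone Psmd10, with 4.3, 3.27 and 3.81 TPM, was above both in every library. Psmd5 then had 1.34, 1.52 and 1.9 TPM and Psmd9 0.86, 1.3 and 1.48 TPM. In the other transcript table Psmd9, with 12.5, 9.53 and 13.3 TPM, overlapped Psmd5, with 9.69, 8.71 and 10.4 TPM. The chaperones of the 20S core were lower still over all transcripts. Psmg3 had 2.39 ± 0.115 TPM and Psmg1 had 1.61 ± 0.547 TPM. Psmg2, the partner of Psmg1, had 1.13, 2.75 and 2.16 TPM and one of the 5 largest spreads. Psmg4 had 0.53, 1.77 and 0.65 TPM. Pomp, the 20S maturation factor whose name falls outside the naming rule, had 25.1 ± 2.68 TPM, above all 7.

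Of the forms known from single tissues, Psma8, the alpha subunit of the spermatoproteasome of male germ cells, had 0.25, 1.57 and 0.57 TPM from 1, 15 and 3 expected counts. Psmb11, the thymoproteasome subunit of cortical thymic epithelium, had a count of 0 in all 3 libraries; such a count allows up to 3 counts, or 0.125, 0.0711 and 0.0923 TPM. That limit covers counting error in the gene table only; the authors' other transcript table lists Psmb11 at 4.13, 3.56 and 3.83 TPM. Psmc3ip, which bears the prefix but encodes a meiotic recombination factor and no proteasome component, had 0.823 ± 0.348 TPM. Psme2b had 24.5, 33.9 and 23.0 TPM and is uncertain. It is a single exon of 837 bases on chr11:48945354-48946190 on the minus strand, and its transcript differs from an annotated Psme2 transcript by 32 edits, an identity of 96.2%. It also lies inside Gm12185 on the same strand, which had 5.69 ± 1.80 TPM. The gene 9930111J21Rik1 on that strand had 52.7 ± 16.6 TPM. Its lowest coordinate is 48946150, so it overlaps only an edge of Psme2b. The part of reads of these genes in the Psme2b value was not tested.

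The catalytic subunits were then set against their inducible partners within each library. Psmb6 exceeded its partner, while Psmb5, Psmb7 and Psme3 lay below theirs. Psmb5 had 1.59, 5.51 and 4.10 TPM, against 33.1, 28.0 and 30.6 TPM for Psmb8. Its level on the log2(TPM + 1) scale was lower by a mean difference of -2.84 ± 0.80 (SD, n = 3; exact two-sided sign-flip permutation test, p = 0.25). Psmb6, with 92.0, 58.8 and 72.8 TPM, exceeded Psmb9, with 39.4, 27.0 and 25.4 TPM, by 1.26 ± 0.20 (SD, n = 3; exact sign-flip permutation p = 0.25). Psmb7, with 23.1, 14.5 and 16.9 TPM, lay below Psmb10, with 43.0, 59.4 and 65.9 TPM, by a difference of -1.58 ± 0.62 (SD, n = 3; exact sign-flip permutation p = 0.25). Psme3, with 13.4, 15.9 and 17.1 TPM, lay below Psme1, with 95.7, 86.1 and 101 TPM, and Psme2, with 314, 296 and 320 TPM. Against the mean of the log2(TPM + 1) levels of Psme1 and Psme2 the difference was -3.39 ± 0.18 (SD, n = 3; exact sign-flip permutation p = 0.25). In the other transcript table that gap was smaller, -2.16 ± 0.16. Each direction held in 3 of 3 libraries. With 3 libraries p = 0.25 is the smallest value this exact test can give, also after Benjamini-Hochberg adjustment over the 4 pairs, so none of the differences could pass a threshold. The constitutive gene made up 10.9% ± 5.98 of the summed TPM of Psmb5 and Psmb8, 70.9% ± 2.89 of Psmb6 and Psmb9, and 25.0% ± 8.64 of Psmb7 and Psmb10. Psmb9 overlaps the opposite-strand peptide transporter gene Tap1, which had 116 ± 8.80 TPM, and the part of its reads in the Psmb9 value was not tested. Psmb7 in part overlaps the opposite-strand gene Nek6, which had 4.67 ± 0.531 TPM from 575, 823 and 705 expected counts. Psmb7 had 607, 642 and 592 expected counts, and the part of Nek6 reads in them was not tested either.

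The Psmb5 result turned with the kind of transcript. Most of the Psmb8 level, 94.7% ± 3.11, was on transcripts annotated as retained intron, a kind that Psmb5 does not have in this annotation. On protein-coding transcripts alone, an alternative chosen after seeing the data, Psmb5 had 1.59, 5.51 and 4.10 TPM, against 1.16, 2.48 and 1.05 TPM for Psmb8. Psmb5 was then the higher in 3 of 3 libraries, by 0.83 ± 0.53 (SD, n = 3; exact sign-flip permutation p = 0.25). The other pairs, with Psme1 and Psme2 averaged, kept their direction on protein-coding transcripts. Psmb6 differed from Psmb9 by 1.43 ± 0.44 and Psmb7 from Psmb10 by -1.27 ± 0.71 on the same scale. Psme3 differed from the mean of the log2(TPM + 1) levels of Psme1 and Psme2 by -1.23 ± 0.36. Against Psme1 alone the direction was not kept in every library. Psme3 had 9.3, 9.93 and 10.7 TPM and Psme1 8.56, 12.4 and 16.5 TPM, so Psme3 was higher in replicate 1.

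**Figure D3:**
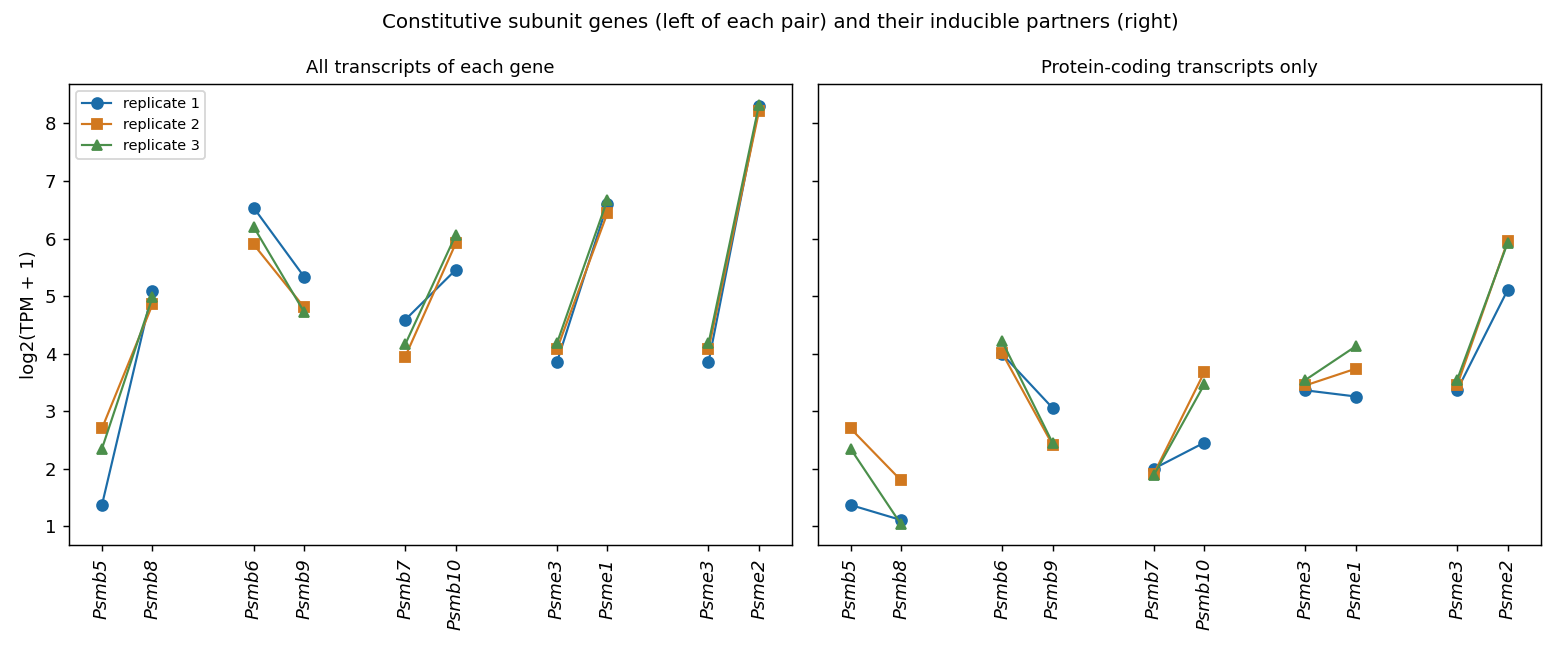
Levels as log2(TPM + 1) of each constitutive gene (left of a pair) and its inducible partner (right), with 1 line per library, from all transcripts of a gene (left panel) and from protein-coding transcripts only (right panel). The Psmb5 lines slope up to Psmb8 in the left panel and down in the right panel; the lines from Psmb6 slope down to Psmb9 in both.

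Chromatin RNA includes transcripts that are still being spliced, and the annotation has transcripts of the type retained intron for 29 of the 45 genes. For the 27 of them with at least 1 TPM in each library, a median of 59.9% ± 3.74 of the gene's TPM lay on such transcripts, and 17 of the 27 were above 50%. Over 5881 protein-coding genes chosen the same way the median was 48.1% ± 2.41 and 46.5% of genes were above 50%. In the transcript table from alignments, the 8 core-particle genes with such a transcript had a median of 78.5% ± 3.03. It was 44.4% ± 5.17 for the 4 ATPase genes and 48.3% ± 7.12 for the 9 non-ATPase genes. Class medians were not computed for the other transcript table. There the core-particle genes ran from 41.6% for Psma4 to 88.2% for Psmb4, and the ATPase genes from 26.4% for Psmc1 to 78.9% for Psmc4. These classes overlapped in both tables. In the transcript table from alignments the highest share was that of Psma3, with 82.4%, 88.7% and 88.9% in replicates 1, 2 and 3. Psmb7 followed with 87.0%, 80.8% and 84.0%, and Psmb3 with 81.1%, 85.4% and 84.3%; the values of Psma3, Psmb7 and Psmb3 overlapped. The lowest were Psmd1 with 41.2%, 31.0% and 27.3%, Psmd7 with 35.1%, 31.3% and 31.2%, and Psmc1 with 16.1%, 3.41% and 26.4%. Psmc1 varied most in proportion, and its retained-intron transcript had 5.01, 0.69 and 7.74 TPM. The order of the genes was not kept in the other transcript table. There Psmb4 had the highest mean share with 88.2%, followed by Psmd6 with 79.99% and Psmc4 with 78.9%, while Psma3 had 62.1%, Psmb7 62.4% and Psmb3 72.5%. The lowest there were Psmd9 with 14.0%, Psmd11 with 20.5% and Psmd7 with 25.7%, and Psmc1 had 26.4%.

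**Figure D4:**
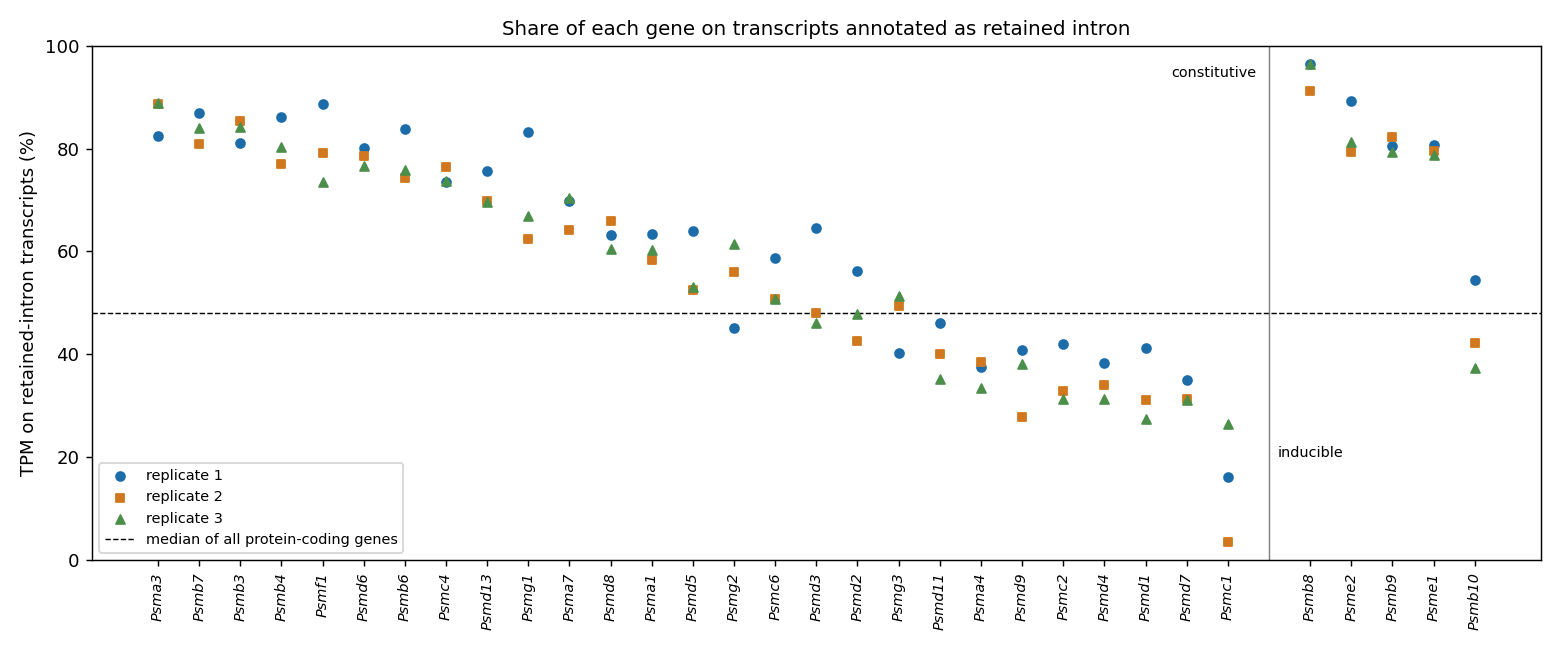
Percent of each gene's TPM on transcripts annotated as retained intron in the 3 libraries (points; transcript table from alignments) for the 27 constitutive genes with such a transcript and at least 1 TPM in each library, sorted by mean, followed by the 5 inducible genes. The dashed line is the median of 48.1% over protein-coding genes; Psma3, Psmb7 and Psmb3 lie highest among the constitutive genes and Psmc1 lowest.

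Several genes with no retained-intron transcript held their RNA on other kinds of noncoding transcript. Psma6 had 65.7% of its level on the processed transcript ENSMUST00000162972.1, with 18.99, 10.1 and 20.2 TPM in replicates 1, 2 and 3, and 7.16, 7.79 and 10.8 TPM on its coding transcript. The spread of Psma6 between libraries therefore lay mostly on the processed transcript. Psmb1 had 50.9% of its level on ENSMUST00000231696.1 and Psmb2 43.4% on ENSMUST00000130737.7, both processed transcripts. Psmc5 had 74.4% on the nonsense-mediated decay transcript ENSMUST00000133131.1, with 6.24, 10.9 and 12.0 TPM, and 4.18, 3.38 and 2.45 TPM on its coding transcript. The highest library of the coding transcript of Psmc5 was thus replicate 1, the lowest library of the whole gene. Psme4 differed between libraries mostly outside its full-length coding transcript ENSMUST00000041231.13, which had 32.9, 30.9 and 28.3 TPM. Its processed transcript ENSMUST00000142217.1 had 30.8, 17.5 and 15.3 TPM. The same held for Psmd14, whose coding transcript ENSMUST00000028278.13 had 18.6, 19.2 and 20.1 TPM, while the processed transcript ENSMUST00000125388.1 had 24.96, 7.12 and 12.5 TPM.

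Levels also went with the annotation. Among the genes with at least 1 TPM per library, the 27 that have a retained-intron transcript had a median of 28.5 ± 0.832 TPM, and the 14 that have none, Psmb5, Psma2 and Psma5 among them, had 16.2 ± 0.350 TPM. Among all protein-coding genes at the same limit, the 5881 with one had 14.1 ± 0.651 TPM and the 3158 without had 6.90 ± 0.235 TPM. Protein-coding transcripts took 38.5% ± 3.43 of the summed TPM of the 41 genes with at least 1 TPM in each library, and 47.5% ± 2.32 for the 9039 protein-coding genes at that level. Retained-intron transcripts took 43.3% ± 1.74 and 39.9% ± 2.11 in the same sets, and processed transcripts 15.3% ± 2.40 and 8.70% ± 0.310. On protein-coding transcripts alone, 15 of the 45 genes had at least 10 TPM in each library, where 11.3% of protein-coding genes did, and their median was 8.26 TPM. Gene length did not order the genes: across the same 41 genes, the genomic span and the level had a Spearman rho of 0.004.

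Between libraries, the 41 genes had a median SD of 0.18 on the log2(TPM + 1) scale, and the 9688 protein-coding genes averaging 1 TPM or more had 0.26. These sets were not matched for level. In each library 31 of the 41 genes reached 10 TPM, and 4213 of the 9688 did. The part of level in the SDs was not tested. The largest SDs were 0.69 for Psmb5, 0.42 for Psmg2, 0.39 for Psma6, 0.38 for Psme4 and 0.36 for Psmd14, and the smallest was 0.04 for Psma3. Apart from Psmb5 and Psmg2, the list depended on the scale. With TPM rescaled to protein-coding genes the largest were 0.99 for Psmb5, 0.70 for Psmg2, 0.58 for Psmg1, 0.42 for Psme2b and 0.41 for Psmc5, while Psma6 had 0.35, Psme4 0.25 and Psmd14 0.21. With TMM log2 CPM, Psmb5 had 0.84, Psmg1 0.69 and Psmg2 0.63, while Psme4 had 0.14 and Psmd14 0.13. The smallest SD changed as well. It was 0.02 for Psmc2 with rescaled TPM, where Psma3 had 0.16, and 0.03 for Psmb1 with TMM, where Psma3 had 0.12. Replicate 1 was the highest library for 22 of the 41 genes, 53.7%, and for 37.6% of the 9688 protein-coding genes; replicate 2 was the highest for 8 of the 41 and replicate 3 for 11. After TPM were rescaled to protein-coding genes, replicate 2 was the highest for 21 of the 41, 51.2%, and for 42.4% of the 9688, replicate 1 for 7 and replicate 3 for 13.

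The genes lie on 16 chromosomes, with 10 of them on chromosome 11 and 6 on chromosome 2. A gene on the opposite strand starts within 1000 bases upstream of 8 of the 45, 17.8%, and of 10.7% of all protein-coding genes. Among genes with at least 1 TPM in each library the shares were 19.5% of 41 proteasome genes and 16.9% of 9039 protein-coding genes. The neighbours did not share one ratio. Psma7 had 47.2 ± 3.90 TPM, and Ss18l1, whose start is 76 bases away, had 2.28 ± 0.470 TPM. Psmc2 had 13.6 ± 1.51 TPM, and Dnajc2, a ribosome-associated chaperone gene 32 bases away, had 18.6 ± 2.60 TPM. Psmd10 had 3.79 ± 0.515 TPM, and Atg4a, an autophagy protease gene 179 bases away, had 14.5 ± 4.87 TPM. Psmb1 had 17.6 ± 1.32 TPM, and Tbp, the gene of the TATA-binding protein 137 bases away, had 9.51 ± 2.10 TPM. Psmc5 had 13.1 ± 2.28 TPM and Ftsj3, a ribosome-assembly gene 75 bases away, 11.9 ± 4.19 TPM. Psma2 had 5.75 ± 1.10 TPM and the mitochondrial ribosomal gene Mrpl32 75 bases away 4.23 ± 0.499 TPM, so both sides of that pair were low in the gene table.

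Other genes of the pathway, taken from a fixed list of 32 that matched a symbol, were present to a like extent, with 31 at 1 TPM or more and 22 at 10 TPM or more in each library. The highest was Nfe2l2, the oxidative-stress factor NRF2, with 250, 104 and 167 TPM in replicates 1, 2 and 3. The unfoldase gene Vcp had 117, 88.1 and 99.3 TPM. Nfe2l1, whose protein restores proteasome genes after proteasome inhibition, had 110, 83.3 and 85.2 TPM. Replicate 1 was the highest library for all 3. The lowest was Ubqln2, a shuttle for ubiquitinated proteins, with 0.56, 0.73 and 1.12 TPM.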

How the data were processed

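Per the file headers, the authors deposited TPM and expected counts for genes and transcripts from alignments to the transcriptome. The deposited tables also hold a posterior SD of each count, used here as a score of assignment error, and effective lengths. A further deposited transcript table, made from the reads directly, gives estimated counts and TPM. All used mm10 and GENCODE M21, per the labels and headers. The use of strand, the aligner and the quantifiers were not given in the sources used here.

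Genes were matched by identifier and version. Rows that are no annotated gene, 0.292% to 1.34% of expected counts, were left out. Levels are the deposited TPM. Pairs were compared as log2(TPM + 1) within a library, tested by exact two-sided sign flips over the 3 libraries, a permutation test. A difference on that scale understates that of low genes. Retained-intron shares were computed from transcript TPM for genes with at least 1 TPM in each library. Posterior SDs of the proteasome genes were at most 2.67% of the count, other than 6.81% for Psmd9 and 25.6% for Psmc3ip. A chi-square comparison of counts gave 24.2 to 67.9 per degree of freedom between libraries, so no library is a second copy of another. It does not tell biological from technical spread.

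Expected counts were rounded for edgeR 4.0.16 (TMM) and DESeq2 1.42.0 (size factors), both in R 4.3.3 and tested on simulated data; both served as alternatives only. Other steps ran in Python 3.11.15 using pandas 2.3.3, numpy 2.4.6, matplotlib 3.10.9 and SciPy 1.17.1. Alternatives were other pseudocounts, filters, scalings and the other table, and leaving out each library. Genes named with all values were the 3 highest and the lowest of each role and pathway list, the catalytic and activator pairs, the 5 largest SDs and the 3 highest and lowest retained-intron shares. The genes and lists were chosen with earlier results of these data known.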

Additional observations from a re-analysis of the deposited data

Results flagged for a closer look

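Psmb11, the thymic subunit gene, had 0 expected counts in the gene table of every library but a signal in the authors' other transcript table, which the comparisons do not use. Its estimated count there was 287 in replicate 1, 479 in replicate 2 and 391 in replicate 3, or 4.13, 3.56 and 3.83 TPM. These values lie above the limit of 3 counts that a count of 0 allows. All of it lay on the transcript ENSMUST00000097177.4, and the other annotated Psmb11 transcript was at 0 TPM. The gene spans chr14:54621433-54629556 on the plus strand of mm10, near Psmb5 and Cdh24, which both lie on the minus strand and had 3.73 ± 1.99 and 0.597 ± 0.104 TPM in the gene table.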

How the results depend on the processing

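Of 108 alternative values for 17 results, 87 kept their direction or stayed within the spread or within 1.5 times of a count, 20 moved further and 1 reversed. The reversed one was the difference of Psmb5 from Psmb8, which was 0.83 on protein-coding transcripts only. Under every other alternative run, the 4 pairs kept their direction, with the exact p at 0.25 (0.5 with 2 libraries). Leaving out each library gave -3.18 to -2.39 for Psmb5 and Psmb8, 1.15 to 1.34 for Psmb6 and Psmb9, -1.93 to -1.39 for Psmb7 and Psmb10, and -3.46 to -3.29 for Psme3 and its partners. The other transcript table gave -2.22, 1.01, -1.97 and -2.16 for these pairs in that order. In the other transcript table the median over all 45 genes was 29.7 TPM, that of the alpha ring 45.4, the beta ring 22.3, the non-ATPase genes 43.5, the activators and inhibitor 35.9, the chaperones 3.58 and the single-tissue forms 2.34. On protein-coding transcripts only, the median over all was 8.26 TPM and 15 genes had at least 10 TPM. Rescaling TPM to protein-coding genes changes the unit and gave medians of 107.9 for the alpha ring, 61.1 for the beta ring, 89.5 for the ATPases, 122 for the non-ATPase genes, 51.9 for activators and inhibitor, 8.28 for chaperones and 1.40 for single-tissue forms. Without the chaperone under a mean of 1 TPM, the class median was 3.13 TPM. The median SD ran between 0.11 and 0.20 on the log2 scale when each library was left out, and was 0.11 without replicate 1. Replicate 1 was the highest library for 7 of 41 genes with rescaled TPM and for 14 with TMM. The cause of these shifts was not tested. No pseudocount enters the class medians, and the single-tissue forms have no member with a mean of 1 TPM, so those alternatives give no value. No paired analysis was possible because there is 1 group, so no replicate block between groups exists; genes were compared within libraries. Low counts limit genes such as Psmb5, Psma8, Psmc3ip and Psmg1.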
